A study of Mus musculus with 27 samples.

Results

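The genes described here are 9 chemokine ligands, Ccl2, Ccl3, Ccl4, Ccl5, Ccl12, Cxcl10, Cxcl12, Cxcl16 and Cx3cl1. They were taken by symbol, and all 9 were found among the 31053 gene rows of each matrix. No chemokine receptor is among them, so the receptors that bind them were followed as a separate list of 11 genes. Single-nucleus RNA-seq was run on hippocampi of 27 mice, with 1 droplet library per mouse, to ask how a tau transgene and the copies of Cgas, which encodes the cytosolic DNA sensor cGAS, change gene expression. P301S mice carry a human tau transgene with the P301S mutation, driven by the mouse prion protein promoter, and were Cgas+/+, Cgas+/- or Cgas-/- with 6 libraries each (3 males and 3 females). Mice without the transgene were Cgas+/+ (5 libraries, 3 males and 2 females), Cgas+/- (2 males) or Cgas-/- (2 males). The labels give no age.

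Chemokines are small secreted proteins that guide leukocytes through G protein-coupled receptors, and most are made on demand by activated cells. Ccl2 and Ccl12 bind Ccr2, Ccl3 and Ccl5 bind Ccr1, Cxcl10 binds Cxcr3 of activated T cells, and Cxcl10 is a classical interferon-stimulated gene. Cxcl16 and Cx3cl1 are made as membrane-bound proteins that bind Cxcr6 and the microglial receptor Cx3cr1, and Cxcl12 is a constitutive ligand of Cxcr4 and Ackr3.

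UMIs, the molecules counted in each nucleus, summed to between 31400000 and 58200000 per library in 5840 to 12600 kept nuclei. Levels below are in CPM, the usual depth-scaled unit, from the UMIs of a gene divided by all UMIs of the same class of nuclei. Classes were called "X-like" from marker genes after clustering without any chemokine pathway gene. The microglia-like class held 214 to 1200 nuclei per library, which was 2.92 to 8.81% of nuclei without P301S and 2.54 to 9.55% with it. T cell-like nuclei made up at most 0.539% of any library. Pairs of libraries shared at most 44 barcodes, 0.513% of the smaller library. The library P301S Cgas+/+ replicate 3 stood apart, since 51.2% of its nuclei stayed in unnamed clusters (1.44% at the lowest over all 27). Replicate 2 of the same group held 68.2% of an unnamed cluster of 920 nuclei, and the P301S and Cgas differences are also given without both. P301S Cgas+/- replicate 2 held 98.5% of an unnamed cluster of 68 nuclei and P301S Cgas+/- replicate 1 held 52.9% of the striatal neuron-like nuclei, and each library was also left out in turn. Cgas itself (Mb21d1 in the files) was detected in microglia-like nuclei of every group, at 32.4 to 39.3 CPM in Cgas+/+, at 16.0 and 22.4 CPM in Cgas+/- and at 33.2 and 22 CPM in the libraries labelled Cgas-/-. In the libraries labelled P301S Cgas-/- it was 40.6 to 58.6 CPM, against 26.4 to 56.9 CPM in P301S Cgas+/+. UMIs that count the 3' end need not show the deleted part, so this level does not check the labels.

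The 9 genes lie on 4 chromosomes of the mouse genome GRCm38, the assembly also known as mm10. On chromosome 11 lie Ccl2 (82035571 to 82037453, plus strand), Ccl12 (82101845 to 82103400, plus strand), Ccl5 (83525778 to 83530518, minus strand), Ccl3 (83647844 to 83649355, minus strand), Ccl4 (83662584 to 83664683, plus strand) and Cxcl16 (70453983 to 70459984, minus strand). Ccl2 and Ccl12 are 64.4 kb apart, and Ccl3 and Ccl4 are 13.2 kb apart. Cxcl10 lies on chromosome 5 (92346638 to 92348889, minus strand), Cxcl12 on chromosome 6 (117168535 to 117181367, plus strand) and Cx3cl1 on chromosome 8 (94772009 to 94782427, plus strand). Ccl2, Cxcl10 and Cxcl16 each overlap a gene on the other strand (Gm17268, Art3 and Zmynd15), and whether the counting used strand is not given in the sources used here, so UMIs of these pairs could be mixed.

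Promoters were looked up for the 9 members, and 5 matched an entry. The 3 printed here are those of the entries whose genes rose with P301S in glia below. Each runs 5' to 3' on the strand of its gene, from 250 bases before the transcription start to 50 bases after it, as RefSeq gives it on GRCm38.p6. Capitals mark the motif matches named after them.
Cxcl10, chr5:92348840-92349139, minus strand: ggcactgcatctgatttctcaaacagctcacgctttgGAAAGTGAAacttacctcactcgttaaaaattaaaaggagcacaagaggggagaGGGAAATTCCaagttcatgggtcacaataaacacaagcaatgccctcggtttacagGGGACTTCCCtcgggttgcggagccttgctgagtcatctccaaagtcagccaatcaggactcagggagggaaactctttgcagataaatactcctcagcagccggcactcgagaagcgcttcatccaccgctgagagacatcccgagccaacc
Ccl12, chr11:82101595-82101894, plus strand: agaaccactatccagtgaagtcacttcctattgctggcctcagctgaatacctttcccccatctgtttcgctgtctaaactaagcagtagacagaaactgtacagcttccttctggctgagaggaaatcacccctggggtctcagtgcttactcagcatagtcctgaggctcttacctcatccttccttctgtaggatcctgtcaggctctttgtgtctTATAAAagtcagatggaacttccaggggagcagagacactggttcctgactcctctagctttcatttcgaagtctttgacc
Ccl3, chr11:83649329-83649628, minus strand: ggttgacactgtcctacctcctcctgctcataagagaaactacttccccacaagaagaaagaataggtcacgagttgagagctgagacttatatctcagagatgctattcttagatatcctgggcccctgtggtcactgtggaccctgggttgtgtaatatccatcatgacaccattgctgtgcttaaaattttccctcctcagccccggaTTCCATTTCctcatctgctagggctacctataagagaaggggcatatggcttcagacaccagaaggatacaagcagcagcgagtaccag
The Cxcl10 window held the core of an interferon-stimulated response element (GAAANNGAA), 213 bases before the start, and 2 NF-kB sites, 159 and 103 bases before it. The Ccl3 window held the same response element core on the opposite strand, 39 bases before the start. The Ccl12 window held a TATA box (TATAAA) 31 bases before the start, and so did Cx3cl1 at 6 bases, while Cxcl12 held none of the 3 motifs. On either strand of the 32851 promoters of the same length, the response element core was in 8.56%, the NF-kB site in 4.51% and the TATA box in 13.6%. These matches describe letters in the window and not binding.

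The members were made by different cells. Cx3cl1 was mainly neuronal, Cxcl12 had its highest level in vascular nuclei, Cxcl16, Ccl3, Ccl4 and Ccl12 were microglial, and Cxcl10 was found in microglia-like and astrocyte-like nuclei. Ccl5 had its highest level in T cell-like nuclei, and Ccl2 was rare in every class. Over all 204852 kept nuclei, Cx3cl1 had 62867 UMIs and Cxcl12 had 2757. The other members were rare, with 869 UMIs for Cxcl10, 712 for Cxcl16, 313 for Ccl4, 293 for Ccl5, 290 for Ccl12, 188 for Ccl2 and 175 for Ccl3.

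**Figure D1:**
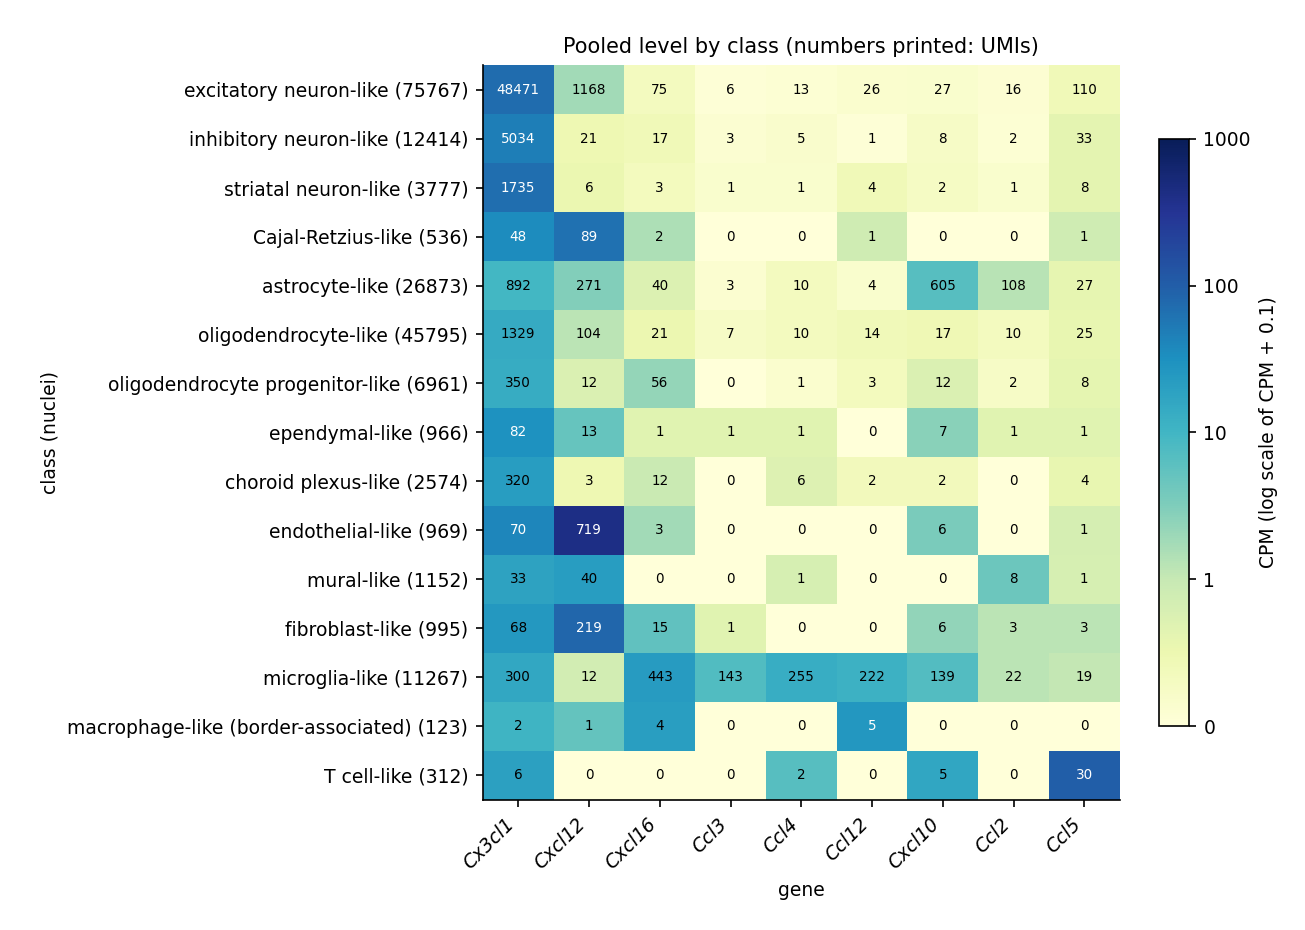
Level of each of the 9 members (columns) in each class of nuclei (rows, with the number of nuclei), with color giving the CPM pooled over the 27 libraries on a log scale and the UMIs printed in each cell. Cx3cl1 is spread over the neuronal classes, Cxcl12 peaks at 407 CPM in endothelial-like nuclei, and Ccl3, Ccl4, Ccl12 and Cxcl16 are concentrated in the microglia-like class.

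Microglia-like nuclei held 81.7% of the Ccl3 UMIs, 81.5% of Ccl4, 76.6% of Ccl12 and 62.2% of Cxcl16. Their pooled level was 22.6 CPM for Cxcl16 (95% Poisson interval 20.6 to 24.8), 13 CPM for Ccl4 (11.5 to 14.7), 11.3 CPM for Ccl12 (9.89 to 12.9) and 7.30 CPM for Ccl3 (6.15 to 8.6), with intervals that cover counting error only. Even so, a UMI was seen in few nuclei, 3.51% for Cxcl16, 1.71% for Ccl12, 1.62% for Ccl4 and 1.05% for Ccl3. In oligodendrocyte-like nuclei, which should lack these ligands, the shares were 0.0459% for Cxcl16, 0.0306% for Ccl12, 0.0218% for Ccl4 and 0.0153% for Ccl3, at a median of 1914 UMIs per nucleus without these ligands (about 1620 to 1629 in microglia-like nuclei without them). Border macrophage-like nuclei did not differ from microglia beyond counting error in Cxcl16 (4 UMIs, 20.5 CPM, 5.59 to 52.5) or Ccl12 (5 UMIs, 25.6 CPM, 8.33 to 59.8).

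Cxcl10 had 605 of its UMIs in astrocyte-like nuclei (6.42 CPM, 5.92 to 6.95) and 139 in microglia-like nuclei (7.10 CPM, 5.97 to 8.38), levels whose intervals overlap. Its highest class level, 16.2 CPM in T cell-like nuclei (5.25 to 37.7), came from 5 UMIs in 4 of 312 nuclei (1.28%), and its interval holds both glial levels. It was concentrated in few nuclei. In astrocytes 195 nuclei (0.726%) held a UMI, 96 of them held 2 or more, and 1 nucleus held 38, while 0.0371% of oligodendrocyte-like nuclei held any and none held more than 1. In microglia 53 nuclei (0.470%) held all 139 UMIs.

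Ccl5 reached 97 CPM in T cell-like nuclei (65.5 to 139), with a UMI in 26 of 312 nuclei (8.33%) against 0.0546% of oligodendrocyte-like nuclei. The class was so small that it held 10.2% of Ccl5 UMIs, and 37.5% were scattered over excitatory neuron-like nuclei at a UMI in 0.141% of them. Ccl2 was at 1.15 CPM in astrocyte-like nuclei (0.940 to 1.38) and at 1.12 CPM in microglia-like nuclei (0.704 to 1.70), which did not differ beyond counting error. Its highest class level, 4.37 CPM in mural-like nuclei, came from 1 nucleus that held all 8 UMIs of the class.

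Cxcl12 was at 407 CPM in endothelial-like nuclei (378 to 438), where 25.4% of 969 nuclei held a UMI. That class held 26.1% of the Cxcl12 UMIs, while the far more numerous excitatory neuron-like nuclei held 42.4%. It followed at 80.6 CPM in fibroblast-like nuclei, 62.8 CPM in Cajal-Retzius-like nuclei and 21.9 CPM in mural-like nuclei, with intervals of fibroblast-like and Cajal-Retzius-like nuclei that overlap (70.3 to 92.0 and 50.4 to 77.3). Dentate granule-like nuclei had 4.98 CPM and astrocyte-like nuclei 2.88 CPM. Cx3cl1 was at 69.7 CPM in excitatory neuron-like nuclei, where 42.5% of nuclei held a UMI, and was highest in cortical-like nuclei at 87.4 CPM. CA1-like (68.9 CPM) and striatal neuron-like nuclei (68.7 CPM) did not differ beyond counting error, and dentate granule-like (48.8 CPM), inhibitory neuron-like (47.8 CPM) and CA3-like nuclei (33.5 CPM) were lower. Microglia-like nuclei had 15.3 CPM with a UMI in 2.57%, close to the 2.81% of oligodendrocyte-like nuclei, and this share is read as background. Astrocyte-like nuclei had 9.47 CPM with a UMI in 3.14%, below the 14.1 CPM of oligodendrocyte-like nuclei, and are read the same way.

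Some receptors peaked in other cells than their ligands, and some in the same class. Cx3cr1 was at 948 CPM in microglia-like nuclei, where 73.3% held a UMI, against a mainly neuronal ligand. Ccr2, which binds Ccl2 and Ccl12, peaked at 118 CPM in macrophage-like nuclei (23 UMIs), also the highest class of Ccl12 (5 UMIs). Ccr1 peaked in the same class at 30.8 CPM from 6 UMIs (11.3 to 67.0). Cxcr3 (42.0 CPM, 13 UMIs) and Cxcr6 (188 CPM, 58 UMIs) peaked in T cell-like nuclei. That was also the highest class of Cxcl10 (5 UMIs), while Cxcl16 was highest in microglia-like nuclei. The Cxcl12 receptors differed, with Cxcr4 at 19 CPM in Cajal-Retzius-like nuclei and the scavenging receptor Ackr3 at 82.0 CPM in mural-like nuclei (69.4 to 96.2) and 80.3 CPM in endothelial-like nuclei (67.7 to 94.7), the class where Cxcl12 itself was highest. Of the enzymes that trim these ligands, the shedding protease Adam17 was at 201 CPM in microglia-like nuclei, Adam10 at 327 CPM in endothelial-like nuclei and the peptidase Dpp4 at 155 CPM in T cell-like nuclei.

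The transgene comparison asked which members differed in P301S hippocampus. In microglia, Ccl4, Cxcl16, Ccl12, Ccl3 and Cxcl10 were higher in the 18 libraries with P301S than in the 9 without it, and in astrocytes Cxcl10 and Ccl2 were. This contrast averages the 3 Cgas genotypes in a fit of all 27 libraries and was chosen after the data were seen. Of the 4 members that passed the filter on low counts in the planned fit as well, 3 (Ccl4, Cxcl16 and Ccl12) rose in microglia-like nuclei in edgeR's quasi-likelihood test and none fell, beside 12.2% of the 9629 genes tested (8.31% in that direction). Ccl3 and Cxcl10 passed the threshold too, which makes 5 of the 6 members tested, as in the DESeq2 fit. They passed the filter only because this fit asks for UMIs in as few libraries as the smallest group holds, and a gene that passes through the group where it is high had to differ, so their p-values below are a description. Ccl4 and Ccl12 reached the level that the filter asks for in P301S libraries alone, so their p-values carry the same limit. The counts of 3 of 4 and 5 of 6 are therefore a description too. Cxcl16 reached that level in libraries without P301S as well. P-values measure the spread between mice, each seen in 1 library. Shares of all genes are given for the main edgeR fits alone, so member counts by DESeq2 or under other settings stand without one. Cx3cl1, the sixth member tested, had a log2 difference of -0.02 ± 0.33 (adjusted p = 0.990), and Ccl2, Ccl5 and Cxcl12, with 22, 19 and 12 microglial UMIs, did not pass the filter.

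Ccl4, which attracts monocytes and T cells, gave the clearest separation. In microglia-like nuclei it was 2.42, 2.46, 2.40, 0 and 0 CPM in the 5 Cgas+/+ libraries, 3.73 and 1.60 CPM in Cgas+/- and 1.23 and 5.07 CPM in Cgas-/-. In P301S Cgas+/+ its lowest, median and highest levels were 6.79, 9.61 and 32.8 CPM, in P301S Cgas+/- 3.17, 11 and 27.8 CPM, and in P301S Cgas-/- 8.52, 15.3 and 39.0 CPM. All P301S libraries but P301S Cgas+/- replicate 6 (3.17 CPM) lay above the highest library without the transgene, which is 17 of 18. The log2 difference was 2.91 ± 0.52 (SE), a fold of 7.53 (3.64 to 15.6, an interval of 2 SE either side, as for all folds below) with an adjusted p of 0.00152 in edgeR over all genes. An exact two-sided permutation test over the 27 libraries gave an unadjusted p of 6.40e-07. Leaving out any 1 library kept the Ccl4 call, with edgeR adjusted p between 3.58e-04 and 0.0291.

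Cxcl16, the membrane-bound ligand of Cxcr6, was 0, 22.1, 2.40, 5.89 and 0 CPM in Cgas+/+, 18.6 and 4.81 CPM in Cgas+/- and 1.23 and 6.76 CPM in Cgas-/- microglia-like nuclei. In P301S its lowest, median and highest levels were 10.1, 19 and 54.7 CPM in Cgas+/+, 0, 25.9 and 48.5 CPM in Cgas+/-, and 12.5, 24.2 and 37.2 CPM in Cgas-/-. The ranges overlapped, because Cgas+/+ replicate 2 and Cgas+/- replicate 1 were high and P301S Cgas+/- replicate 6 was at 0, and 9 of 18 P301S libraries exceeded every library without P301S. The fold was 4.68 (2.15 to 10.2; log2 2.23 ± 0.56) with an edgeR adjusted p of 0.0130, and the exact permutation p was 0.00117. The adjusted p was up to 0.0910 without Cgas+/- replicate 2 or Cgas-/- replicate 1, so the Cxcl16 call rests on each of these 2 libraries.

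Ccl12, a mouse Ccr2 ligand, was 0, 9.84, 4.79, 5.89 and 2 CPM in Cgas+/+, 3.73 and 4.81 CPM in Cgas+/- and 1.23 and 3.38 CPM in Cgas-/-. With P301S its lowest, median and highest levels were 3.40, 12.1 and 23.1 CPM in Cgas+/+, 0, 9.27 and 25.6 CPM in Cgas+/-, and 2.09, 11.6 and 31.5 CPM in Cgas-/-. Again 9 of 18 lay above all libraries without P301S, and 2 P301S Cgas+/- libraries were at 0. The fold of Ccl12 was 4.23 (1.79 to 9.96; log2 2.08 ± 0.62) with an edgeR adjusted p of 0.0281, while the exact permutation p was 0.0562. The Ccl12 call was lost without either Cgas+/- or either Cgas-/- library (adjusted p up to 0.120) and without the sex covariate (adjusted p = 0.0502, edgeR).

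Ccl3 lies next to Ccl4 and binds Ccr1. It was 2.42, 0, 0, 2.94 and 0 CPM in Cgas+/+, 11.2 and 1.60 CPM in Cgas+/- and 2.46 and 0 CPM in Cgas-/-, and its P301S medians were 4.08 CPM (1.24 to 25.2), 6.38 CPM (0 to 13.8) and 5.23 CPM (2.13 to 25.3) in Cgas+/+, Cgas+/- and Cgas-/-. Cgas+/- replicate 1 was higher than most P301S libraries, and 6 of 18 exceeded it. The fold of Ccl3 was 4.64 (1.66 to 13; log2 2.21 ± 0.74), its edgeR adjusted p of 0.0488 was close to the threshold and was lost in 19 of the 25 fits that left out 1 library and still tested it (0.0281 to 0.198), and the exact permutation p was 0.00687. The Ccl3 call was also lost without the sex covariate, with other size factors, with doublets put back and with nuclei classed by their own markers (edgeR adjusted p of 0.0502, 0.0516, 0.0602 and 0.0539).

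Cxcl10, the interferon-stimulated ligand of Cxcr3, had no UMI in microglia-like nuclei without P301S (9 libraries). In P301S Cgas+/+ it was 0 to 18 CPM (median 2.96), in P301S Cgas+/- 0 to 34.5 CPM (median 5.15) and in P301S Cgas-/- 0 to 16.3 CPM (median 5.99), above 0 in 13 of 18 libraries. Pooled, 139 against 0 UMIs put Cxcl10 at least 13.3-fold higher, taking 3 counts over the 9 libraries as the limit that a count of 0 allows. That limit covers the counting error of independent UMIs only. The 139 UMIs lay in 53 nuclei, with up to 11 in 1 nucleus, and mice differed, so the fold could be lower. Its edgeR adjusted p was 0.0293 and its exact permutation p 0.00124, and the call was lost without either Cgas+/- or either Cgas-/- library or without P301S Cgas-/- replicate 5 (adjusted p up to 0.109). It was also lost with the Cell Ranger version as covariate (adjusted p = 0.0502, edgeR).

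Libraries came from Cell Ranger 3.0.2 (12, all male, 6 with and 6 without P301S) or 3.1.0 (15, of which 12 with and 3 without P301S, 11 female). Every female library is thus of version 3.1.0, so version and sex overlap in part, and the P301S differences in glia are also given within version, as mean log2(CPM + 1) with the exact permutation p. Without P301S, both Cgas+/- and both Cgas-/- libraries are male and of 3.0.2, and the 3 libraries of 3.1.0 are all Cgas+/+. Each P301S group has 2 libraries of 3.0.2 and 4 of 3.1.0. Version and P301S therefore overlap in part in Cgas+/- and Cgas-/-. Ccl4 differed by 2.55 in the 3.0.2 libraries (exact p = 0.00216) and by 2.91 in the 3.1.0 libraries (p = 0.00220). Cxcl16 differed by 2.28 (exact p = 0.0108) and 2.61 (p = 0.0220), Ccl3 by 2.18 (p = 0.00649) and 1.60 (p = 0.0681) and microglial Cxcl10 by 2.92 (p = 0.0152) and 2.01 (p = 0.121), with all 5 ligands higher in both versions. Microglial Cx3cl1 differed by 0.47 and -0.08. Ccl12 differed by 2.26 in the 3.0.2 libraries (exact p = 0.00866) and by 0.39 in the 3.1.0 libraries (p = 0.695), so its difference was larger than the spread within the male 3.0.2 libraries and not detectable within the others. Without the 2 libraries that stood apart, the log2 differences in edgeR were 2.89 for Ccl4, 2.21 for Cxcl16 and 2.15 for Ccl12, 4 members were called, and Ccl3 did not pass the filter.

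**Figure D2:**
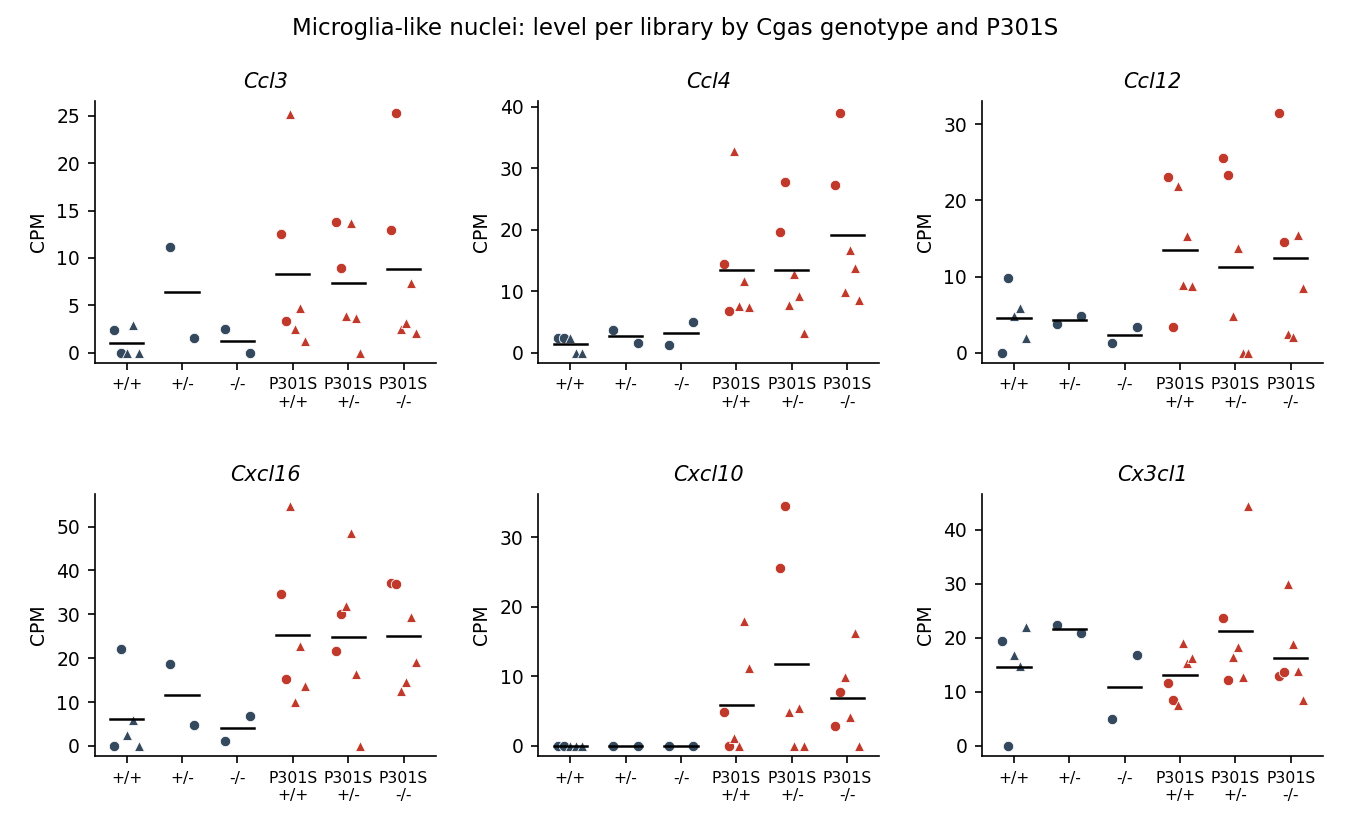
CPM of Ccl3, Ccl4, Ccl12, Cxcl16, Cxcl10 and Cx3cl1 in microglia-like nuclei, with 1 point per library in the 6 genotype groups (circles for Cell Ranger 3.0.2, triangles for 3.1.0) and a bar at each group's mean. Ccl4 ranges from 0 to 5.07 CPM without P301S and from 3.17 to 39.0 CPM with it, and Cxcl10 is at 0 in all 9 libraries without P301S.

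In the planned comparison of P301S Cgas+/+ with Cgas+/+ alone (23 libraries in the fit), no member passed edgeR's threshold in any class. Microglial Ccl4, Cxcl16 and Ccl12 and astrocytic Cxcl10 and Cxcl12 had the same sign as over the 3 Cgas genotypes. Cx3cl1 had the opposite sign in astrocyte-like (-0.67 against 0.11), inhibitory neuron-like (-0.14 against 0.23), oligodendrocyte-like (-0.12 against 0.18), excitatory neuron-like (-0.03 against 0.41) and dentate granule-like nuclei (-0.14 against 0.04) and over all kept nuclei (-0.28 against 0.26). Cxcl12 had it in endothelial-like nuclei (0.29 against -0.15) and over all kept nuclei (0.14 against -0.02). Of all genes tested, 0.0239% were called in excitatory neuron-like nuclei, 0.00808% in oligodendrocyte-like nuclei, 0.00788% in inhibitory neuron-like nuclei and 0.00784% in dentate granule-like nuclei. In microglia 0 of 4 members tested and 0% of 9084 genes were called, 3 members had an unadjusted p under 0.05, DESeq2 called 2 (Cxcl16 and Ccl4) and the permutation test called 0. The count was 5 without the filter on low counts and 1 without the 2 libraries that stood apart. No share of all genes is set beside these counts or that of DESeq2, so they are not read as particular to the members. A permutation of 6 against 5 libraries cannot give a p under 0.00216, and it called no gene in any class, so its count of 0 is no evidence here. Ccl4 had a fold of 9.12 (2.98 to 28.0) with an edgeR adjusted p of 0.0883, Cxcl16 a log2 difference of 2.15 ± 0.76 (adjusted p = 0.164) and Ccl12 one of 1.82 ± 0.83 (adjusted p = 0.283).

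Microglia-like nuclei were divided into sub-clusters, again without any chemokine pathway gene, to see in which of them the ligands lay. A sub-cluster led by Gpnmb and Lgals3, genes known from disease-associated microglia, held 3829 nuclei, 0 to 2.29% of microglia in libraries without P301S and 0.826 to 87.7% (median 39.6%) with it. A sub-cluster led by the interferon-stimulated genes Rsad2 and Mx1 held 793 nuclei, 0 to 1.47% without P301S and 0.250 to 33.4% (median 5.04%) with it, and 50.6% of it came from P301S Cgas+/+ replicate 5. A pair of sub-clusters led by Bank1 and Nhs held 3067 and 3578 nuclei.

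The ligands divided between these sub-clusters. Cxcl16 was at 42.7 CPM in the Gpnmb/Lgals3 sub-cluster (38.3 to 47.5), against 20.6 CPM in Rsad2/Mx1 nuclei and 7.05 and 7.23 CPM in the Bank1/Nhs pair. Ccl4 was at 24.1 CPM in Gpnmb/Lgals3 nuclei and 22.1 CPM in Rsad2/Mx1 nuclei, against 2.64 and 3.53 CPM. Ccl3 was at 14.1 and 8.84 CPM, against 1.10 and 2.29 CPM. Cxcl10 and Ccl12 peaked in Rsad2/Mx1 nuclei. Cxcl10 was at 75.8 CPM there (61.9 to 92.0) and at 3.37 CPM in Gpnmb/Lgals3 nuclei, and Ccl12 was at 52.3 CPM (40.8 to 65.9) and 14 CPM. Without P301S Cgas+/+ replicate 5 the Rsad2/Mx1 levels were 94.8 CPM for Cxcl10 and 71.1 CPM for Ccl12. Ccl4 was then at 32.9 CPM in Rsad2/Mx1 nuclei (21.3 to 48.6) and 25.2 CPM in Gpnmb/Lgals3 nuclei (21.6 to 29.3), so its order turned, with overlapping intervals. Of the 19 microglial UMIs of Ccl5, 15 lay in Rsad2/Mx1 nuclei (11 CPM). Cx3cl1 was even, at 14.9 to 16.1 CPM, and its receptor Cx3cr1 was at 1070 and 1110 CPM in the Bank1/Nhs pair, 879 CPM in Rsad2/Mx1 nuclei and 773 CPM in Gpnmb/Lgals3 nuclei. These levels pool libraries and are descriptions.

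**Figure D3:**
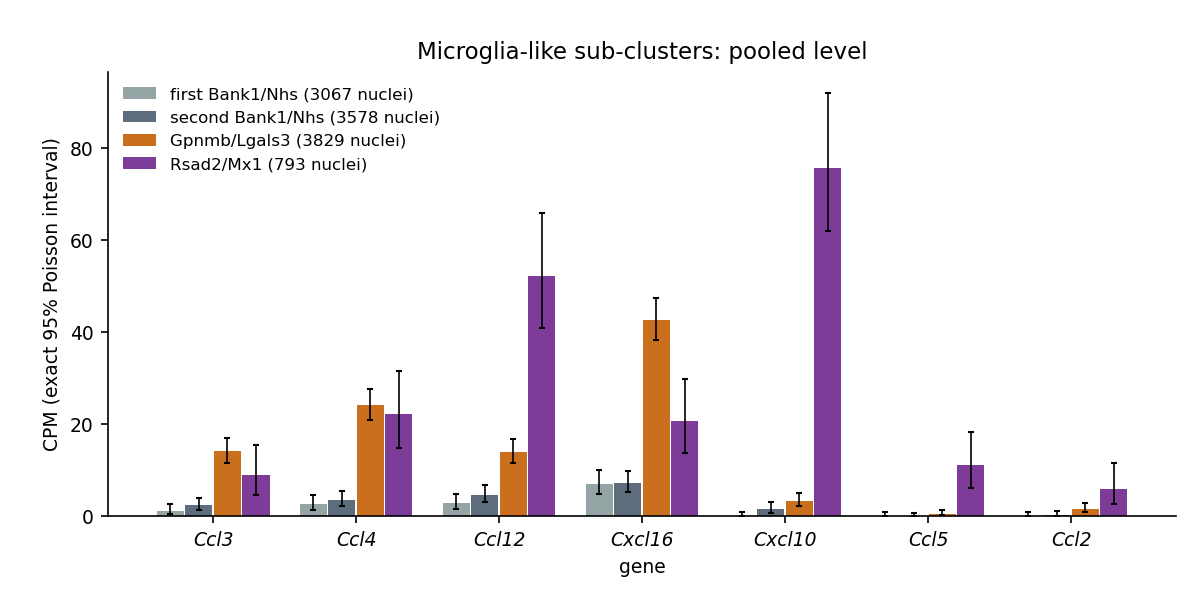
Pooled CPM of the microglial ligands in the 4 microglia sub-clusters, with 95% Poisson intervals as error bars. Cxcl10 (75.8 CPM) and Ccl12 (52.3 CPM) are highest in Rsad2/Mx1 nuclei, and Cxcl16 (42.7 CPM) is highest in Gpnmb/Lgals3 nuclei.

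Within the Bank1/Nhs sub-clusters, which both genotypes filled, the ligands were low with and without the transgene. In the first, Ccl4 was at 3.99 CPM with P301S (1.92 to 7.35) and 0.981 CPM without (0.119 to 3.54), and in the second at 4.38 CPM (2.45 to 7.23) and 2.22 CPM (0.721 to 5.18), with overlapping counting intervals in both. Cxcl16 was at 8.79 CPM with P301S (5.51 to 13.3) and 4.90 CPM without (2.35 to 9.02) in the first and at 10.5 CPM (7.37 to 14.6) and 2.22 CPM (0.721 to 5.18) in the second, where the intervals did not overlap. The Gpnmb/Lgals3 and Rsad2/Mx1 sub-clusters held 36 and 16 nuclei without P301S, too few to compare. A higher ligand level in all microglia-like nuclei and a larger share of these sub-clusters therefore moved together, and how much each contributed was not tested.

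Across the 18 P301S libraries, the levels of Cxcl16, Ccl3 and Ccl12 in all microglia-like nuclei were higher where the share of microglia in the Gpnmb/Lgals3 sub-cluster was larger. The level in all microglia-like nuclei averages over the sub-clusters. A ligand that is higher in a sub-cluster therefore follows its share in part by construction, and the p-values below cannot separate this from any other relation. Permutation tests were run on 10 relations of 5 ligands with 2 shares, and adjusted p-values are over these 10. For log2(CPM + 1) of Cxcl16, Pearson's r was 0.71 (permutation p = 5.00e-05, adjusted 5.00e-04) and Spearman's rho 0.83 (p = 9.00e-05, adjusted 9.00e-04). For Ccl3 they were 0.68 (permutation p = 0.00218, adjusted 0.0106) and 0.68 (p = 0.00238, adjusted 0.0119), and for Ccl12 0.65 (p = 0.00318, adjusted 0.0106) and 0.62 (p = 0.00724, adjusted 0.0241). Ccl4 gave 0.51 (permutation p = 0.0300, adjusted 0.0751) and 0.54 (p = 0.0214, adjusted 0.0429). Without the 2 libraries farthest from the median share, r was 0.71 for Cxcl16, 0.69 for Ccl3, 0.67 for Ccl12 and 0.60 for Ccl4. Within the 6 libraries of version 3.0.2 these r were 0.92, 0.82, 0.66 and 0.68, and within the 12 of version 3.1.0 they were 0.73, 0.77, 0.73 and 0.56. Cxcl10 did not pass with that share (r = 0.21, permutation p = 0.408, adjusted 0.502, rho = 0.23, p = 0.348, adjusted 0.435). With the Rsad2/Mx1 share Cxcl10 gave r = 0.46 (permutation p = 0.0412, adjusted 0.0825) and rho = 0.55 (p = 0.0198, adjusted 0.0429), with r = 0.42 without the 2 farthest libraries, 0.74 within version 3.0.2 and 0.46 within 3.1.0. The other 4 ligands had r between 0.11 and 0.29 with the Rsad2/Mx1 share, and none passed after adjustment. Without the 2 farthest libraries their r was higher, at 0.59 for Ccl4 and for Ccl12, 0.47 for Ccl3 and 0.40 for Cxcl16, so the order of the ligands in this relation rests on those libraries.

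Single nuclei were also scored for pairs of ligands. Among the 8191 microglia-like nuclei of P301S libraries, a Ccl4 UMI was found in 24.3% of the 111 nuclei with a Ccl3 UMI and in 1.82% of the others. A Cxcl10 UMI was found in 8.99% of the 178 nuclei with a Ccl12 UMI and in 0.462% of the others. Ccl3-positive nuclei had a median of 2165 UMIs and the others 1746, so depth moved with detection. Nuclei with a Ccl4 UMI (182 in 25 libraries) had more of the immediate-early factor Atf3 (161 against 24.0 CPM, higher in 14 of 25 libraries), the microglial growth factor Csf1 (579 against 166 CPM, 14 of 25) and Cd83 (654 against 201 CPM, 16 of 25). Their pooled Rsad2 level was also higher (96.6 against 8.94 CPM), in 9 of 25 libraries. The 53 microglia-like nuclei with a Cxcl10 UMI had more Rsad2 (706 against 6.52 CPM, higher in 10 of 13 libraries), Mx1 (845 against 45.7 CPM, 11 of 13) and the transcription factor Irf1 (368 against 26.3 CPM, 11 of 13).

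In astrocyte-like nuclei, 1 of the 3 members that also passed the filter in the planned fit, Cxcl10, rose with P301S over the 3 Cgas genotypes, beside 2.65% of 13779 genes (2.01% in that direction). Ccl2, the second member past the threshold, passed the filter in this fit alone and had no UMI without P301S, so it passed through the group where it is high and had to differ. Cxcl10 also stayed below the level that the filter asks for in every library without P301S, so its p-value carries the same limit. The count of 1 of 3 is therefore a description. DESeq2 called 3, Cxcl12 included. Cx3cl1 had a log2 difference of 0.11, and the other 5 members did not pass the filter. Cxcl10 was 0, 1.02, 1.87, 0.885 and 0 CPM in Cgas+/+, 0.515 and 1.25 CPM in Cgas+/- and 0.439 and 0.925 CPM in Cgas-/-. With P301S its lowest, median and highest levels were 0.899, 11.9 and 19.4 CPM in Cgas+/+, 0, 4.61 and 11.5 CPM in Cgas+/-, and 0.358, 10.4 and 29.4 CPM in Cgas-/-. In 13 of 18 P301S libraries it was above every library without P301S, and the other 5 lay within that range, among them P301S Cgas+/- replicates 5 and 6. The fold was 12.1 (3.90 to 37.5; log2 3.60 ± 0.82) with an edgeR adjusted p of 0.0273, from 583 and 22 UMIs, and the exact permutation p was 0.00138. The astrocytic Cxcl10 call was lost without P301S Cgas-/- replicate 2 and without either Cgas+/- or either Cgas-/- library (adjusted p up to 0.128), and without the filter on low counts (adjusted p = 0.0532, edgeR).

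Ccl2, the main monocyte-recruiting ligand of Ccr2, had no UMI in the astrocyte-like nuclei of the 9 libraries without P301S and 108 UMIs with it, at least 18.5-fold higher by the same limit. It was 0 to 4.33 CPM in P301S Cgas+/+ (median 0.854), 0 to 5.69 CPM in P301S Cgas+/- (median 1.96) and 0 to 6.81 CPM in P301S Cgas-/- (median 0), above 0 in 11 of 18 libraries. The 108 UMIs came from 37 nuclei, of which 29.7% were in P301S Cgas-/- replicate 5. Up to 16 lay in 1 nucleus, so the fold could again be lower than that limit gives. The edgeR adjusted p of 0.0477 was lost in 17 of 27 fits that left out 1 library (up to 0.149), with the version as covariate (0.0967), without the sex covariate (0.0641) and without the filter on low counts (0.104), and the exact permutation p was 0.00891.

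Cxcl12 in astrocyte-like nuclei was between 0.659 and 2.71 CPM (median 1.25) without P301S and between 0.479 and 12.6 CPM (median 2.61) with it, and 9 of 18 lay above the first range. Its fold was 3.18 (1.47 to 6.90) with an edgeR adjusted p of 0.103, and the exact permutation p was 0.0525, so Cxcl12 did not pass the test. Within version, the log2(CPM + 1) of astrocytic Cxcl10 differed by 2.39 (exact permutation p = 0.00866) in the 3.0.2 libraries and 1.68 (p = 0.130) in the 3.1.0 libraries, Ccl2 by 1.03 (p = 0.0606) and 1.0 (p = 0.222), and Cxcl12 by 0.58 (p = 0.143) and 0.62 (p = 0.356). All 3 were higher with P301S in both. Astrocytic Cx3cl1, at a level read as background, differed by 0.26 (exact permutation p = 0.290) and -0.60 (p = 0.0242), with opposite signs. Without the 2 libraries that stood apart, 3 members were called, with log2 differences of 3.80 for Cxcl10 and 1.75 for Cxcl12 (adjusted p = 0.0411, edgeR).

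**Figure D4:**
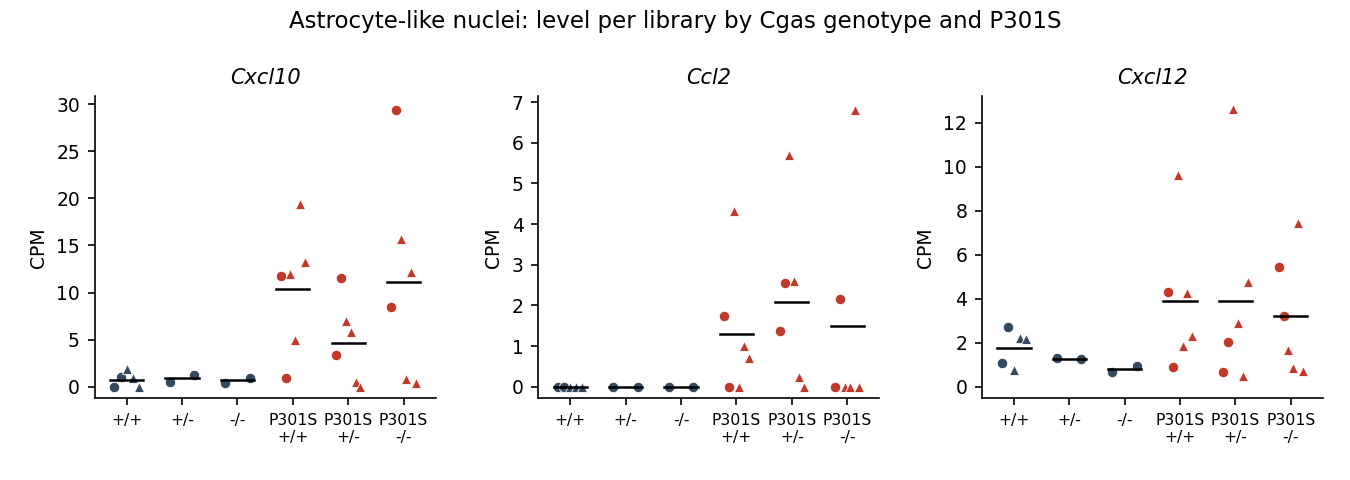
CPM of Cxcl10, Ccl2 and Cxcl12 in astrocyte-like nuclei, with 1 point per library in the 6 genotype groups (circles for Cell Ranger 3.0.2, triangles for 3.1.0) and a bar at each group's mean. Cxcl10 is at most 1.87 CPM without P301S and reaches 29.4 CPM with it, and Ccl2 is at 0 in all 9 libraries without P301S.

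The astrocyte-like nuclei with a Cxcl10 UMI (195 in 24 libraries) differed from the other astrocytes of the same libraries in interferon-stimulated genes. Mx1 was at 327 against 2.78 CPM (higher in 15 of the 24 libraries), the guanylate-binding protein Gbp5 at 467 against 9.73 CPM (17 of 24), Rsad2 at 335 against 11.9 CPM (17 of 24) and Rnf213 at 1180 against 120 CPM (24 of 24). The 37 astrocyte-like nuclei with a Ccl2 UMI had other leading genes, with the stress-induced regulator Nupr1 at 284 against 4.05 CPM (higher in 5 of 11 libraries) and the adhesion molecule Icam1 at 366 against 14.3 CPM (6 of 11). Gm17268, which overlaps Ccl2 on the other strand, was at 156 against 0.315 CPM (3 of 11). Cxcl10-positive astrocytes had a median of 4756 UMIs and the others 3292, and Ccl2-positive ones 5389 and the others 3297.

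For P301S Cgas+/+ against Cgas+/+ in astrocyte-like nuclei, edgeR called 0 of 3 members tested beside 0.00769% of 13002 genes, 2 had an unadjusted p under 0.05, DESeq2 called 1 (Cxcl10) and the permutation test 0. Cxcl10 had a fold of 17.2 (3.49 to 84.4) with an edgeR adjusted p of 0.218. Cx3cl1, at a level read as background in this class, had a log2 difference of -0.67 ± 0.22 (unadjusted p = 0.00568, adjusted p = 0.258, edgeR).

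Summed over all kept nuclei, where fewer nuclei of a type and less RNA per nucleus cannot be told apart, all 9 members passed the filter. With P301S 4 of them rose, beside 2.13% of 19957 genes (1.42% in that direction), and DESeq2 called 6. These 4 stayed below the level that the filter asks for in every library without P301S. They passed it through the group where they are high, so their p-values and this count are a description. Cxcl10 was 0 to 0.132 CPM without P301S and 0 to 3.80 CPM with it (log2 difference 3.97 ± 0.80, adjusted p = 0.0191 in edgeR). Ccl4 was 0 to 0.172 CPM and 0.0353 to 1.31 CPM (log2 3.44 ± 0.67, adjusted p = 0.0191). Ccl2 was 0 to 0.0890 CPM and 0 to 1.28 CPM (5.71 ± 1.40, adjusted p = 0.0379) and Ccl12 0.0356 to 0.147 CPM and 0 to 0.924 CPM (2.75 ± 0.71, adjusted p = 0.0452). Ccl3 (2.86 ± 0.81, adjusted p = 0.0610) and Cxcl16 (1.54 ± 0.50, adjusted p = 0.0962) did not pass, nor did Cx3cl1 (0.26 ± 0.15, adjusted p = 0.423, edgeR, against -0.28 ± 0.21 for P301S Cgas+/+ against Cgas+/+) and Cxcl12 (-0.02 ± 0.27, adjusted p = 0.990). The calls of Ccl4 and Cxcl10 were lost without either Cgas+/- or either Cgas-/- library, that of Ccl2 in 11 of the fits that left out 1 library and that of Ccl12 in 14. With the version as covariate Ccl2 and Ccl12 lost their calls over all kept nuclei (adjusted p = 0.0587 and 0.0558, edgeR), and likewise without the sex covariate (0.0583 and 0.0590), and Ccl12 without the filter on low counts (0.0542). The count was 5 without the 2 libraries that stood apart, with Ccl3 past the threshold (adjusted p = 0.0280, edgeR). For P301S Cgas+/+ against Cgas+/+ alone, edgeR called 0 of 9 beside 0.0210% of 19060 genes, 6 had an unadjusted p under 0.05, DESeq2 called 4 and the permutation test 0.

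Ccl5 recruits T cells, monocytes and eosinophils. Over all kept nuclei it was 0.0226 to 0.338 CPM (median 0.235) without P301S and 0 to 0.575 CPM (median 0.167) with it, and the ranges overlapped, with 7 of 18 P301S libraries above the highest library without it. The log2 difference of Ccl5 was 0.48 ± 0.42 with an edgeR adjusted p of 0.647. T cell-like nuclei, its highest class, were too few for a test, with 312 nuclei in all.

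The 2 constitutive ligands showed no call in the cells that make them. Cxcl12 in endothelial-like nuclei was 261, 596, 0, 416 and 221 CPM in Cgas+/+, 409 and 211 CPM in Cgas+/- and 562 and 476 CPM in Cgas-/-. The 0 is Cgas+/+ replicate 3, where 0.0140% of nuclei were endothelial-like with 1229 UMIs in all, too few to measure a level. With P301S it was 174 to 1500 CPM in Cgas+/+ (median 366), 201 to 508 CPM in Cgas+/- (median 402, 5 libraries with such nuclei) and 115 to 1240 CPM in Cgas-/- (median 563). The groups overlapped with and without that library. Libraries with fewer than 10 endothelial-like nuclei were left out of the fit, and the log2 difference with P301S was -0.15 ± 0.36 (edgeR). In that class 0% of 2892 genes were called, Cxcl12 was the only member tested, it had an unadjusted p over 0.05 and DESeq2 did not call it. In dentate granule-like nuclei Cxcl12 differed by -0.25 ± 0.22 and in excitatory neuron-like nuclei by -0.55 ± 0.30, neither called. The endothelial difference was -0.18 without the 2 libraries that stood apart, and also not called.

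Cx3cl1, the neuronal ligand that restrains microglia through Cx3cr1, was 48.0, 45.5, 79.1, 87.0 and 54.8 CPM in the excitatory neuron-like nuclei of Cgas+/+, 45.4 and 59.3 CPM in Cgas+/- and 34.9 and 52.5 CPM in Cgas-/-. With P301S its lowest, median and highest levels were 36.0, 61.4 and 78.7 CPM in Cgas+/+, 66.3, 75.7 and 103 CPM in Cgas+/-, and 51.8, 75.1 and 128 CPM in Cgas-/-. The groups overlapped, and 3 of 18 P301S libraries exceeded every library without P301S. The log2 difference over the 3 Cgas genotypes was 0.41 ± 0.15, with an unadjusted p of 0.0100 and an adjusted p of 0.116 in edgeR, so Cx3cl1 was not called beside 2.24% of 17595 genes. It was 0.66 in the 3.0.2 libraries (exact permutation p = 0.00649) and -0.02 in the 3.1.0 libraries (p = 0.943) on the log2(CPM + 1) scale, so it was not seen in the 3.1.0 libraries. With both libraries that stood apart left out it was 0.40 (adjusted p = 0.161 in edgeR), again no call. In inhibitory neuron-like nuclei the log2 difference was 0.23 ± 0.13, beside 0.0225% of genes called, in dentate granule-like nuclei 0.04 ± 0.11, beside 0.702%, and in oligodendrocyte-like nuclei 0.18 ± 0.20, beside 0.154%. None of these 3 was called by edgeR or DESeq2 or had an unadjusted p under 0.05.

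The Cgas comparisons asked whether the ligands differed between P301S mice with different copies of Cgas. No member that was tested passed. In microglia-like nuclei Ccl4, Cxcl16, Ccl12 and Cx3cl1 were tested and in astrocyte-like nuclei Cxcl10, Cxcl12 and Cx3cl1, while microglial Cxcl10 and Ccl3 and astrocytic Ccl2 did not pass the filter in this fit. P301S Cgas-/- and P301S Cgas+/- were each set against P301S Cgas+/+, and both contrasts share these 6 libraries. For the deletion, edgeR and DESeq2 called 0 members in all 8 classes tested, beside 0% of genes in each class, and Cx3cl1 alone had an unadjusted p under 0.05. For the heterozygotes the calls were also 0 by both, with Cx3cl1 again alone at an unadjusted p under 0.05, beside 0% of genes, or 0.00788% in inhibitory neuron-like nuclei. The permutation test called no gene in either contrast, and its smallest p with 6 against 6 libraries is 0.00216, so it adds nothing to these counts.

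The intervals of the folds give the sizes that 6 libraries a group, or fewer in endothelial-like nuclei, left possible. For P301S Cgas-/- against P301S Cgas+/+ in microglia-like nuclei, the fold of Ccl4 was 1.35 (0.767 to 2.38), that of Cxcl16 0.956 (0.484 to 1.89) and that of Ccl12 0.787 (0.358 to 1.73). In astrocyte-like nuclei the fold of Cxcl10 was 0.918 (0.332 to 2.54) and that of Cxcl12 0.846 (0.347 to 2.06). For Cxcl12 in endothelial-like nuclei it was 0.886 (0.464 to 1.69). Changes within these bounds remain compatible with the data. Within version, with 2 libraries a group in 3.0.2 and 4 in 3.1.0, the deletion differences in log2(CPM + 1) were 1.61 and -0.04 for Ccl4, 0.66 and -0.19 for Cxcl16 and 1.13 and -1.10 for Ccl12 in microglia-like nuclei, and 1.79 and -1.33 for Cxcl10 in astrocyte-like nuclei. All 4 were positive in the 3.0.2 libraries and negative in the others, and the difference between versions was not tested. The reference group of 3.0.2 is P301S Cgas+/+ replicates 1 and 2 alone, and replicate 2 is a library that stood apart. The Gpnmb/Lgals3 share of microglia was 67.7% in replicate 1 and 2.50% in replicate 2, so the signs in 3.0.2 rest on 2 unlike libraries. Without the 2 libraries that stood apart, both of the reference group, 0 members were called in any class, and the log2 differences in edgeR were 0.76 for Ccl4, 0.20 for Cxcl16 and -0.41 for Ccl12 in microglia-like nuclei and -0.47 for Cxcl10 and -0.15 for Cxcl12 in astrocyte-like nuclei, so the sign of Cxcl16 turned. Over all kept nuclei the fold was 0.772 for Cxcl10 (0.260 to 2.29), 0.472 for Ccl12 (0.166 to 1.34) and 0.757 for Ccl5 (0.361 to 1.59).

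Cx3cl1 came closest to a call, and in the upward direction. In excitatory neuron-like nuclei it was 1.35-fold higher in P301S Cgas-/- (1.05 to 1.74, unadjusted p = 0.0263, adjusted p = 0.291, edgeR) and over all kept nuclei 1.40-fold (1.06 to 1.84, unadjusted p = 0.0240, adjusted p = 0.463, edgeR). In the heterozygotes the folds were 1.26 (0.979 to 1.62) and 1.35 (unadjusted p = 0.0403, adjusted p = 0.728, edgeR). Within dentate granule-like nuclei the log2 difference of Cx3cl1 for the deletion was 0.18 (0.09 to 0.27 with 1 library left out) and was not called. The excitatory neuron-like class pools subclasses with different Cx3cl1 levels, and whether their mix differed between groups was not tested. For the heterozygotes in microglia-like nuclei the fold was 0.969 for Ccl4 (0.536 to 1.75), 1.05 for Cxcl16 (0.539 to 2.05) and 0.767 for Ccl12 (0.347 to 1.70), and in astrocyte-like nuclei 0.397 for Cxcl10 (0.135 to 1.17, unadjusted p = 0.102, edgeR). Within version these heterozygote differences in log2(CPM + 1) were 1.16 in 3.0.2 and -0.65 in 3.1.0 for Ccl4, 0.14 and -0.73 for Cxcl16, 1.31 and -2.18 for Ccl12 and 0.59 and -2.03 for astrocytic Cxcl10, with opposite signs in the 2 versions. The deletion contrast uses the same reference libraries, so these signs are not a second occurrence. Cx3cl1 in excitatory neuron-like nuclei was positive in both versions, at 0.17 and 0.62 for the deletion and 0.19 and 0.52 for the heterozygotes. Without the 2 libraries that stood apart the heterozygote differences in edgeR were 0.29 for Ccl4, whose sign turned, 0.38 for Cxcl16 and -0.42 for Ccl12 in microglia-like nuclei, and those of Cx3cl1 in excitatory neuron-like nuclei were 0.50 for the deletion and 0.40 for the heterozygotes.

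**Figure D5:**
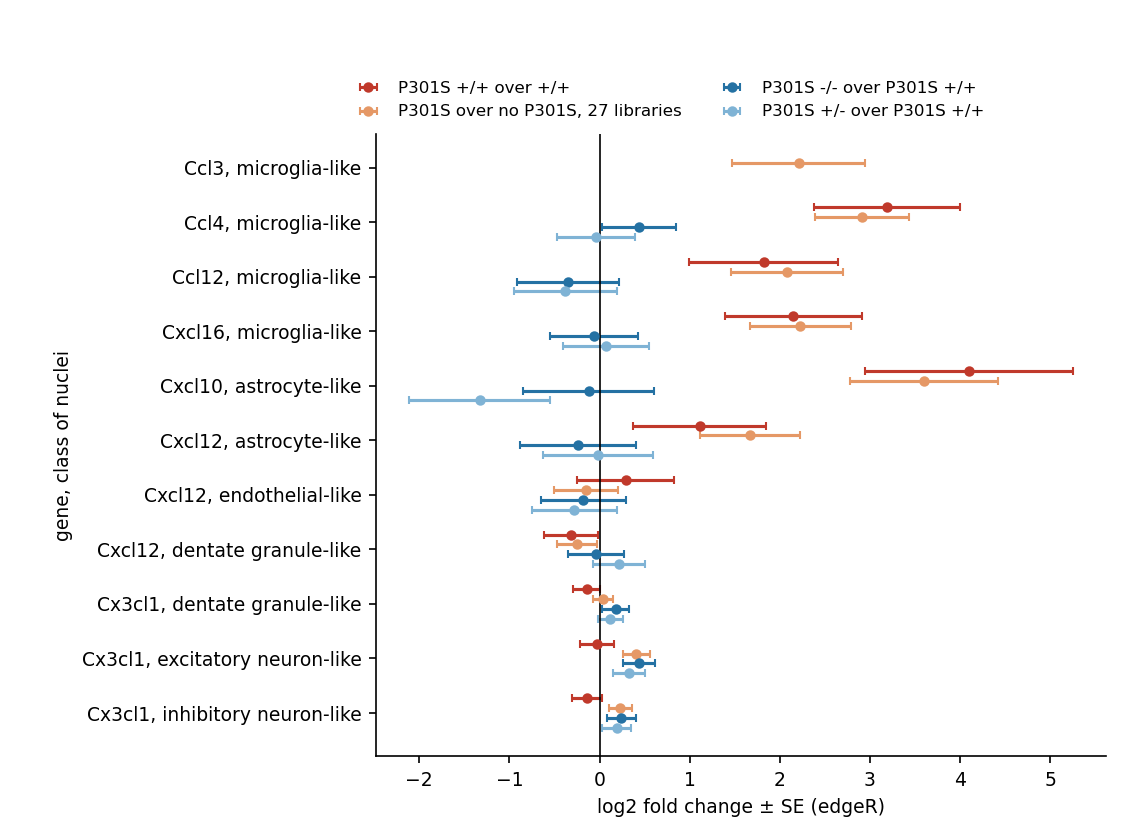
Log2 fold change from edgeR (x axis) of 11 pairs of a member and a class (y axis), in color for P301S Cgas+/+ against Cgas+/+, all P301S libraries against all without it, and P301S Cgas-/- and P301S Cgas+/- against P301S Cgas+/+, with bars of ± 1 SE. The microglial Ccl4 point lies at 2.91 for all P301S libraries, while the microglial points of both Cgas contrasts lie between -0.38 and 0.44.

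Whether the P301S difference itself depended on Cgas was tested as an interaction, the difference in Cgas-/- minus that in Cgas+/+, with 2 nontransgenic Cgas-/- libraries. No member was called, beside 0% of genes in microglia-like and astrocyte-like nuclei and 0.671% of 17595 in excitatory neuron-like nuclei. Cx3cl1 was the only member with an unadjusted p under 0.05, at 1.54 ± 0.39 (log2, adjusted p = 0.549, edgeR) in astrocyte-like, 0.81 ± 0.34 (adjusted p = 0.172) in excitatory neuron-like and 1.0 ± 0.36 (adjusted p = 0.329) in all kept nuclei. Its level in astrocyte-like nuclei is read as background. For microglial Cxcl10 and astrocytic Ccl2, at 0 without P301S, no such value can be estimated. Both nontransgenic Cgas-/- libraries are male and of Cell Ranger 3.0.2, while nontransgenic Cgas+/+ and both P301S groups hold both versions. The interaction and the version therefore overlap in part. The interaction was not fitted with the version as covariate or without the 2 libraries that stood apart.

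The rest of the pathway was counted in the same fits. With P301S over the 3 Cgas genotypes, 3 of the 11 receptors of the members were testable in microglia-like nuclei, and 1, Cx3cr1, fell (fold 0.769, 0.661 to 0.895, log2 -0.38 ± 0.11, adjusted p = 0.0225, edgeR), beside 12.2% of all genes called there. None was called among 2 of 13 other chemokine receptors, 3 of 29 other ligands and 2 of 3 processing enzymes tested there. Ccl6, another microglial ligand, was at a fold of 2.17 (1.23 to 3.84, adjusted p = 0.0745). Over all kept nuclei Ccrl2, an atypical receptor that presents chemerin, rose (2.62 ± 0.63, adjusted p = 0.0361, edgeR) as 1 of 7 other receptors tested, beside 2.13% of all genes, and Dpp4, the peptidase that clips Cxcl10 and Cxcl12, rose (0.90 ± 0.22, adjusted p = 0.0356) as 1 of 3 enzymes. None of the 9 receptors of the members and 12 other ligands tested was called there. In excitatory neuron-like nuclei Dpp4, again 1 of 3 enzymes, rose by 1.38 ± 0.30 (adjusted p = 0.0233, edgeR), beside 2.24% of all genes. For P301S Cgas+/+ against Cgas+/+ its log2 difference was -0.15 ± 0.37 in excitatory neuron-like nuclei and -0.37 ± 0.28 over all kept nuclei, neither called. The interaction of Dpp4 passed the test in excitatory neuron-like nuclei (log2 3.17 ± 0.71, adjusted p = 0.0430, edgeR), beside 0.671% of all genes and with 2 nontransgenic Cgas-/- libraries. Both of these libraries are male and of version 3.0.2, and the interaction was not fitted with the version as covariate.

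Genes with the most similar pattern over the 15 named classes were listed by Pearson's r of log2(CPM + 1), as a description with points that share libraries and depth. For Ccl4 these were Treml2 (r = 0.982), Tnfaip8l2 (0.979) and Slamf6 (0.975), and Slamf6 had 17 UMIs in its highest class. Ccl5 was most like Gm2682 (0.993), Pglyrp2 (0.991) and Cd8b1 (0.990), of which Pglyrp2 and Cd8b1 had 20 and 12 UMIs in T cell-like nuclei. Cxcl16 was like Hpgd (0.918). For Cxcl12 they were Gm10320 (0.906, with 9 UMIs in endothelial-like nuclei, its highest class), Capns1 (0.879) and Map3k6 (0.866), and for Cx3cl1 Acbd6 (0.878), Mtus2 (0.863) and Adarb1 (0.861). The genes found for Ccl12 and Cxcl10 and the other 2 for Cxcl16 had 1 to 7 UMIs in their highest class, so their likeness rests on few molecules and they are not named. Ccl2 and Ccl3 had fewer than 200 UMIs and were left out.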

How the data were processed

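Nuclei of mouse hippocampus were sequenced in 27 droplet libraries, and the authors deposited a matrix of UMI counts per gene and barcode for each. The matrices come from Cell Ranger (3.0.2 in 12 libraries and 3.1.0 in 15 per the file headers, 3.1.0 in the submitters' processing notes, which also name Seurat 3.0 and mm10). Barcodes were kept with 200 to 4000 genes and a mitochondrial share of UMIs of up to 5%. Scored doublets (0.8% per 1000 barcodes, 16429 in all) were removed. The remaining 204852 nuclei were clustered with scanpy 1.11.5 (2000 variable genes without chemokine pathway genes, 30 components, 15 neighbors, resolution 1) into 49 clusters. Clusters were named from at least 3 markers, with thresholds that were revised after cluster names were seen. Clusters without a name stayed out of the classes (14371 nuclei).

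UMI counts were summed per library and class and tested over all genes with edgeR 4.0.16 in R 4.3.3 (quasi-likelihood test, TMM, filterByExpr, sex as covariate, Benjamini-Hochberg threshold of 0.05), with DESeq2 1.42.0 and exact permutation over log2(CPM + 1) as alternatives. The planned fit holds 4 groups (23 libraries) and 3 contrasts, and the fit of all 27 libraries with its P301S contrast and interaction was added after the data were seen. The statistics were tested on simulated data. CPM was computed from the deposited counts, intervals are exact Poisson ones at 95%, and a count of 0 was read as up to 3 counts over the group. That reading covers counting error only.

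All 9 members are named, each in its highest class and in every class where it was tested. Genes of the pathway lists are named where they were called, in their highest class or beside a call. One gene of the pathway lists is not reported here. The members and lists were chosen with earlier results of these data known. Groups come from the labels, which give each mouse a number of its own. Depth was 31400000 to 58200000 UMIs per library (median 41600000), so a member with few UMIs in a class rests on few counts per library. The alternatives tried were other size factors, no filter on low counts, no sex covariate, other sets of libraries, each library left out, doublets put back, nuclei classed by their own markers, the Cell Ranger version as covariate and the fit without the 2 libraries that stood apart, of which the last 2 were chosen after seeing the data.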

Additional observations from a re-analysis of the deposited data

Results flagged for a closer look

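A single library lay far from the rest of its group for 5 of the 46 sets of a member, a class and a group of 4 to 10 libraries that were looked at, and chance alone marks about 1 in 20. In microglia-like nuclei, Ccl4 was 32.8 CPM in P301S Cgas+/+ replicate 3, the library with 51.2% unnamed nuclei, against 14.5 CPM in the next highest library. Cxcl16 was 22.1 CPM in the microglia-like nuclei of Cgas+/+ replicate 2 against 5.89 CPM in the next. In astrocyte-like nuclei, Ccl2 was 6.81 CPM in P301S Cgas-/- replicate 5 against 2.15 CPM, and Cxcl12 was 12.6 CPM in P301S Cgas+/- replicate 3 against 4.78 CPM. In endothelial-like nuclei, Cxcl12 was 1500 CPM in P301S Cgas+/+ replicate 4 against 473 CPM. Among the pathway genes, the P301S difference of Dpp4 in excitatory neuron-like nuclei differed between Cgas-/- and Cgas+/+ by a log2 of 3.17 ± 0.71 (interaction, adjusted p = 0.0430, edgeR), with 2 libraries of nontransgenic Cgas-/- mice, both male and of version 3.0.2.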

How the results depend on the processing

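None of the 11 log2 differences that passed edgeR's threshold turned its sign under any alternative, but microglial Cxcl10 and astrocytic Ccl2, without a UMI in the libraries without P301S, could not turn. Of the others, all but microglial Cxcl16 passed the filter only through P301S libraries. Of the 84 that did not pass, 35 turned under at least 1 alternative, 33 of them with 1 library left out and 21 under another alternative. With 1 library left out, the log2 difference of microglial Cx3cl1 with P301S ran from -0.25 to 0.33, and for the Cgas deletion that of microglial Cxcl16 ran from -0.23 to 0.30 and that of astrocytic Cxcl10 from -0.57 to 0.33. For the heterozygotes microglial Ccl4 ran from -0.35 to 0.43. For P301S against no P301S over the 3 Cgas genotypes, the count of members called in microglia-like nuclei was 5 and became 3 without the sex covariate, and 1 to 5 when 1 library was left out. In astrocyte-like nuclei the count of 2 became 1 with the Cell Ranger version as covariate, 1 without the sex covariate and 0 without the filter on low counts, and 0 to 3 with 1 library left out. In all kept nuclei the count of 4 became 2 with the version as covariate, 2 without the sex covariate, and 0 to 6 with 1 library left out.

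For P301S Cgas+/+ against Cgas+/+, the count of 0 in microglia-like nuclei became 5 without the filter on low counts, 2 with DESeq2, 1 without the 2 libraries that stood apart and 0 to 1 with 1 library left out. It became 1 with DESeq2 in astrocyte-like nuclei. In all kept nuclei it became 4 with DESeq2 and 0 to 2 with 1 library left out. The cause was not tested, and no share of all genes is set beside the counts under the alternatives in this section. With nuclei classed by their own markers, the median level of Cxcl12 moved to 1.38 CPM in Cgas+/- astrocytes, 0.998 CPM in Cgas-/- astrocytes and 429 CPM in Cgas-/- endothelial-like nuclei. No paired analysis was possible because each mouse has its own number, shared by no other library. Depth limits Ccl3, Ccl2 and Ccl12 most, with 175, 188 and 290 UMIs in all.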
